A study of Mus musculus with 48 samples.

Results

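The 6 libraries described here were labelled as macrophages of mouse epididymal white adipose tissue (eWAT) from animals on a ketogenic diet, 3 labelled wild type and 3 labelled knockout for Txnip. They are 6 of 48 libraries in the series. They were divided by the measured level of 1 transcript, Gm11868, into 3 libraries above and 3 below 2.1 CPM (counts per 1 M gene counts), because on the control diet this value lies between the libraries of the 2 genotype labels. The division uses measured values, so everything set out between Gm11868-high and Gm11868-low libraries is a description and carries no test. Tests were made by the deposited labels alone.

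The series covers whole eWAT and cells from eWAT labelled F4/80+, CD11b+ and CD64+, in wild-type animals and in animals with an adipose-specific Txnip knockout, on control or ketogenic diet. No further allele, strain or age is used here, and the labels do not name the driver of the deletion. The macrophage-labelled libraries number 6 per genotype label on the control diet and 3 on the ketogenic diet, and the eWAT libraries number 7 and 8. Nothing in the labels states that the libraries come from different animals, so p-values measure the spread between these samples. Diet coincides with a set of libraries in the titles, so the 2 cannot be told apart. The libraries are named by label and replicate number, WT1 to WT3 and KO1 to KO3. Their gene counts were 44.7, 47.6 and 59.7 M for WT1 to WT3 and 53.2, 51.1 and 43.8 M for KO1 to KO3.

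The product of Txnip is an alpha-arrestin that binds thioredoxin and limits the entry of glucose into cells, and a ketogenic diet replaces most carbohydrate by fat. Gm11868 and Morf4l1-ps1, which recur below, are annotated as processed pseudogenes, copies of a spliced messenger RNA that were written back into the genome elsewhere. Such copies differ from their parent gene at few bases, so short reads can be divided between copy and parent, and values of both are uncertain for that reason. Zfp949 encodes a zinc finger protein, and Eif4a2 encodes an RNA helicase of the complex that starts translation at the messenger RNA cap.

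The 3 sort genes did not lead the RNA of these cells. The cells were labelled by F4/80, CD11b and CD64, encoded by Adgre1, Itgam and Fcgr1, and the RNA of all 3 was low beside that of endothelial and fibroblast genes. Per kilobase of transcript, Adgre1 lay between 4.06 and 7.49 CPM in the 6 libraries, Itgam between 0.396 and 0.769, and Fcgr1 between 0.301 and 0.630. Pecam1, an adhesion molecule of blood vessel lining, lay between 270.2 and 302.4 CPM per kilobase, Emcn, another endothelial gene, between 34.3 and 38.5, and Dcn, a matrix proteoglycan of fibroblasts, between 320.1 and 478.3. Other genes of myeloid cells were higher than the sort genes, with the lysozyme gene Lyz2 between 103.7 and 184.4 CPM per kilobase, the lysosomal gene Cd68 between 17.7 and 32.4 and the complement gene C1qa between 16.7 and 29.3. Adgre1 reached 13.2 to 24.3 CPM here and 39.1 to 149 CPM in the 30 whole eWAT libraries, which were normalized separately. The libraries are therefore called macrophage-labelled. In bulk RNA, fewer cells of a type and less RNA per cell cannot be told apart.

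Txnip, the gene labelled as knocked out in adipose tissue, did not divide the libraries. It had 2182, 1892 and 1936 CPM in WT1 to WT3 and 2364, 1634 and 1906 CPM in KO1 to KO3. The 2 label groups overlapped, with a log2 difference of -0.02 ± 0.13 (SE, 3 against 3 libraries, edgeR adjusted p = 1). In the control-diet macrophage-labelled libraries the label groups overlapped for Txnip too, at 0.08 ± 0.11 (6 against 6, edgeR adjusted p = 0.774). The counts are per whole gene, so a deleted stretch within Txnip is not checked by them. In whole eWAT Txnip was higher with the knockout label, by 0.69 ± 0.09 on the log2 scale on the control diet (7 against 7, edgeR adjusted p = 0.000852) and by 0.35 ± 0.09 on the ketogenic diet (8 against 8, edgeR adjusted p = 0.0440).

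Gm11868 lies on chromosome 4 at 18844202 to 18845679 on the minus strand of GRCm38. Its annotated transcript of 1478 bases aligned over its whole length to the messenger RNA of Cyb5r4, a cytochrome b5 reductase gene on chromosome 9, with 97.98% identity, 23 mismatches and 7 gap bases. The stretch of 120 bases of the Cyb5r4 coding sequence with the most mismatches to the pseudogene, bases 132 to 251 of it, shows how little tells the copies apart. It comes from GENCODE vM21 (GRCm38), is given 5′ to 3′, and capitals mark the 4 mismatches.
Gm11868: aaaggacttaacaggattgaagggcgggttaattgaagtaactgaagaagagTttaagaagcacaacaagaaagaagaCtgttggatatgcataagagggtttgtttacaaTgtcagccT
Cyb5r4: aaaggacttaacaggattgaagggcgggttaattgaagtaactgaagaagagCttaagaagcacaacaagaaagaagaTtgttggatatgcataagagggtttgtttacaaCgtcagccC

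Morf4l1-ps1, on chromosome 16 at 24529394 to 24530362, is closer still to its parent, the chromodomain gene Morf4l1 on chromosome 9. Over all 969 bases of the pseudogene transcript the identity was 99.8%, with 2 mismatches and no gap. The same kind of stretch, bases 400 to 519 of the Morf4l1 coding sequence, holds 1 of them, in capitals.
Morf4l1-ps1: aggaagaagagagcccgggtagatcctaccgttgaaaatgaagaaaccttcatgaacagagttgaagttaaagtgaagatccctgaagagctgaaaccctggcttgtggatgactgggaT
Morf4l1: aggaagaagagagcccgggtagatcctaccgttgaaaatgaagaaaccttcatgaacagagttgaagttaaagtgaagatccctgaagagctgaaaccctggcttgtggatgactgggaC
Near-identical copies of Morf4l1 are annotated on other chromosomes too, which makes the value of this pseudogene the less certain of the 2.

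Gm11868 had 4.41 CPM of gene counts in WT1, 4.45 in WT2 and 0.938 in WT3. It had 3.74 CPM in KO1, 1.27 in KO2 and 0.983 in KO3. These rest on 197, 212, 56, 199, 65 and 43 reads in the same order. The high libraries are thus WT1, WT2 and KO1, and the low ones WT3, KO2 and KO3. The library nearest the cut from above was KO1 at 3.74 CPM and from below KO2 at 1.27 CPM, so none lay close to 2.1.

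In every other set of the series Gm11868 kept to the labels. On the control diet it ran from 0.806 to 1.28 CPM, with a median of 1.07, in the 6 macrophage-labelled libraries labelled wild type, and from 3.75 to 5.04 CPM, with a median of 4.38, in the 6 labelled knockout. In eWAT it ran from 0.720 to 1.20 CPM with the wild-type label and from 3.55 to 4.97 CPM with the knockout label on the control diet, and from 0.490 to 1.28 and from 4.54 to 6.51 CPM on the ketogenic diet. The label groups did not overlap in any of these 3 sets. Among the 6 ketogenic macrophage-labelled libraries, WT3 and KO1 lay on the side their label has elsewhere and the other 4 lay on the opposite side. Of the 3 high libraries 2 were labelled wild type, and of the 3 low libraries 2 were labelled knockout.

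**Figure D1:**
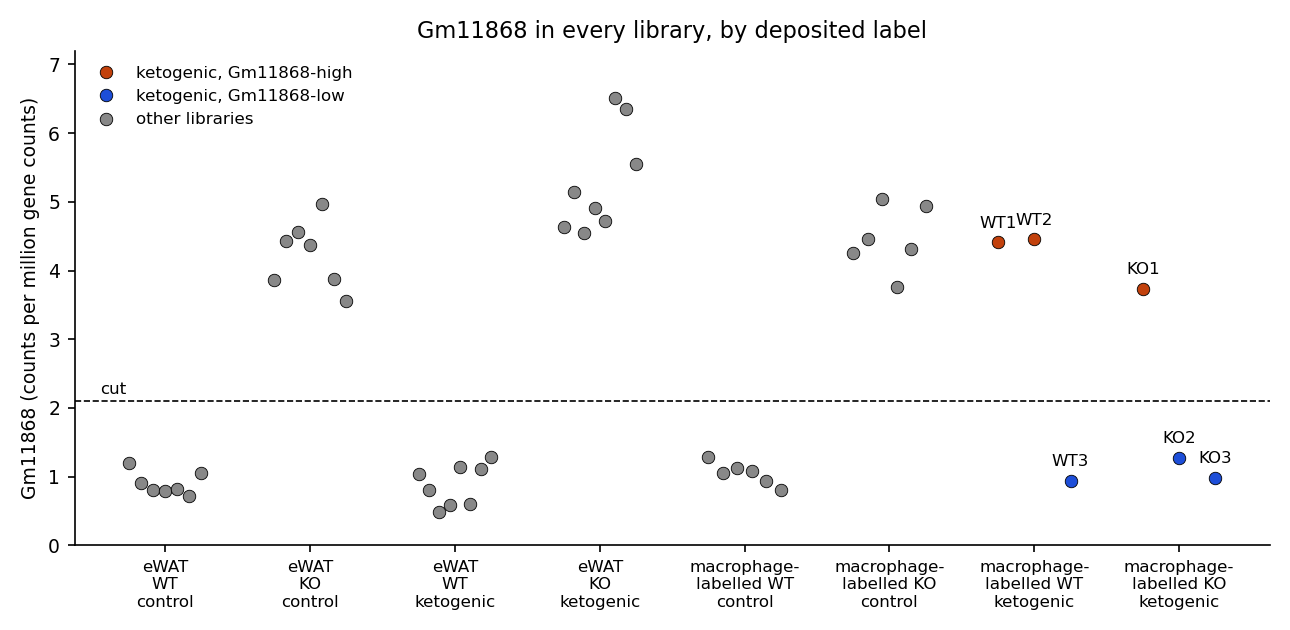
Gm11868 in CPM of gene counts (y axis) in each library, by deposited tissue, label and diet (x axis), with the cut of 2.1 CPM as a dashed line. In the last 2 groups WT1, WT2 and KO1 lie between 3.74 and 4.45 CPM and WT3, KO2 and KO3 between 0.938 and 1.27 CPM, while in the 6 other groups the labels do not overlap.

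A set of 5 genes was called by edgeR in the same direction with the knockout label in all 3 other label comparisons, the macrophage-labelled control diet and both eWAT diets. They are Gm11868, Morf4l1-ps1, Zfp949 and Eif4a2, which were higher, and Cidec, which was lower. Of 17067 genes tested in the control-diet macrophage-labelled libraries, 14 were called (0.082%), 5 higher (0.0293%) and 9 lower (0.0527%) with the knockout label. The eWAT label comparisons called 16.0% of genes with the control diet (4.41% up with the knockout label and 11.6% down) and 3.36% with the ketogenic diet (1.48% up and 1.88% down). The gene named by the rule is 1 of the 5, and its levels there were what set the cut. With all 4 macrophage-labelled groups in one fit, the control-diet calls of Zfp949, Eif4a2 and Morf4l1-ps1 were lost (edgeR adjusted p = 0.0877, 0.160 and 0.0540).

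Zfp949 (chromosome 9, 88548020 to 88571061, plus strand) had 19.0 CPM in WT1, 21.3 in WT2 and 23.2 in KO1. It had 13.3 CPM in WT3, 13.7 in KO2 and 12.9 in KO3. The high libraries were all above the low ones, with a log2 difference of 0.65, computed as all high-minus-low differences here from mean TMM-normalized CPM plus 0.5. With the control diet Zfp949 ran from 7.80 to 13.7 CPM with the wild-type label and from 19.4 to 21.3 CPM with the knockout label, a log2 difference of 0.73 ± 0.11 (6 against 6, edgeR adjusted p = 0.0406). By the ketogenic labels the difference was -0.10 ± 0.27 (3 against 3, edgeR adjusted p = 1).

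Eif4a2 (chromosome 16, 23107444 to 23114136, plus strand) had 210.2 CPM in WT1, 183.8 in WT2 and 228.5 in KO1. It had 141 CPM in WT3, 125.3 in KO2 and 124 in KO3. The high and low libraries did not overlap, with a log2 difference of 0.67. Control-diet libraries ran from 144 to 159.5 CPM with the wild-type label and from 207.6 to 234.4 CPM with the knockout label, a log2 difference of 0.51 ± 0.05 (6 against 6, edgeR adjusted p = 0.000684), against -0.16 ± 0.29 by the ketogenic labels (3 against 3, edgeR adjusted p = 1). WT2, at 183.8 CPM, lay below the lowest control-diet library of the knockout label. Of 13 tested genes of the eIF4 translation initiation group, Eif4a2 was higher without overlap in the high libraries and Eif4ebp1, whose product holds back the cap-binding protein, was lower by 0.13. The median of the group was 0.00. Over all 17067 genes, 8.4% did not overlap between the classes, 4.24% higher and 4.17% lower.

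Morf4l1-ps1 showed the widest gap. It had 2.75 CPM in both WT1 and WT2 and 3.38 CPM in KO1, against 0.296 CPM in WT3, 0.300 in KO2 and 0.237 in KO3. The counts behind these values were 116, 128 and 173 reads, against 17, 15 and 10. The log2 difference of high minus low was 2.15. By label it was 3.25 ± 0.14 on the control diet (6 against 6, edgeR adjusted p = 5.37e-08) and -0.52 ± 1.23 on the ketogenic diet (3 against 3, edgeR adjusted p = 1).

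Cidec, which encodes a protein that joins lipid droplets, did not follow the other 4 genes. It had 57.5, 38.3 and 55.8 CPM in the high libraries WT1, WT2 and KO1 and 52.5, 52.0 and 79.2 CPM in the low libraries WT3, KO2 and KO3, and the 2 classes overlapped. On the control diet Cidec ran from 52.0 to 78.6 CPM with the wild-type label and from 27.3 to 34.3 CPM with the knockout label (log2 difference -0.93 ± 0.11, 6 against 6, edgeR adjusted p = 0.00268). All 6 ketogenic libraries were above that knockout-label range.

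Each ketogenic library was then placed against the midpoint between the 2 control-diet label groups for each of the 4 genes other than Gm11868, whose side the rule fixes. WT2 lay on the knockout-label side for 4 of 4 genes, and WT1 and KO1 did so for 3 of 4, Cidec being the exception. For WT2 the margin was narrow for Eif4a2, at 183.8 CPM against a midpoint of 182.2 CPM. For Cidec WT2 was at 38.3 CPM against a midpoint of 42.9 CPM, above the control-diet range of the knockout label. WT3, KO2 and KO3 lay on the wild-type-label side for 4 of 4. For the 13 genes other than Gm11868 that were called on the control diet, the number on the knockout-label side was 6 in WT1, 8 in WT2 and 5 in KO1, and 2 in each of WT3, KO2 and KO3. The 13 include the 4 genes above, and the 5 in KO1 were Morf4l1-ps1, Zfp949, Eif4a2, Gm5530 and Dgat2. Dgat2 lay on the knockout-label side in every ketogenic library. Adora1, Adrb3, Ifi27l2a and Pcx lay on the wild-type-label side in every ketogenic library. These midpoints come from control-diet libraries, with the limit on diet given above.

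**Figure D2:**
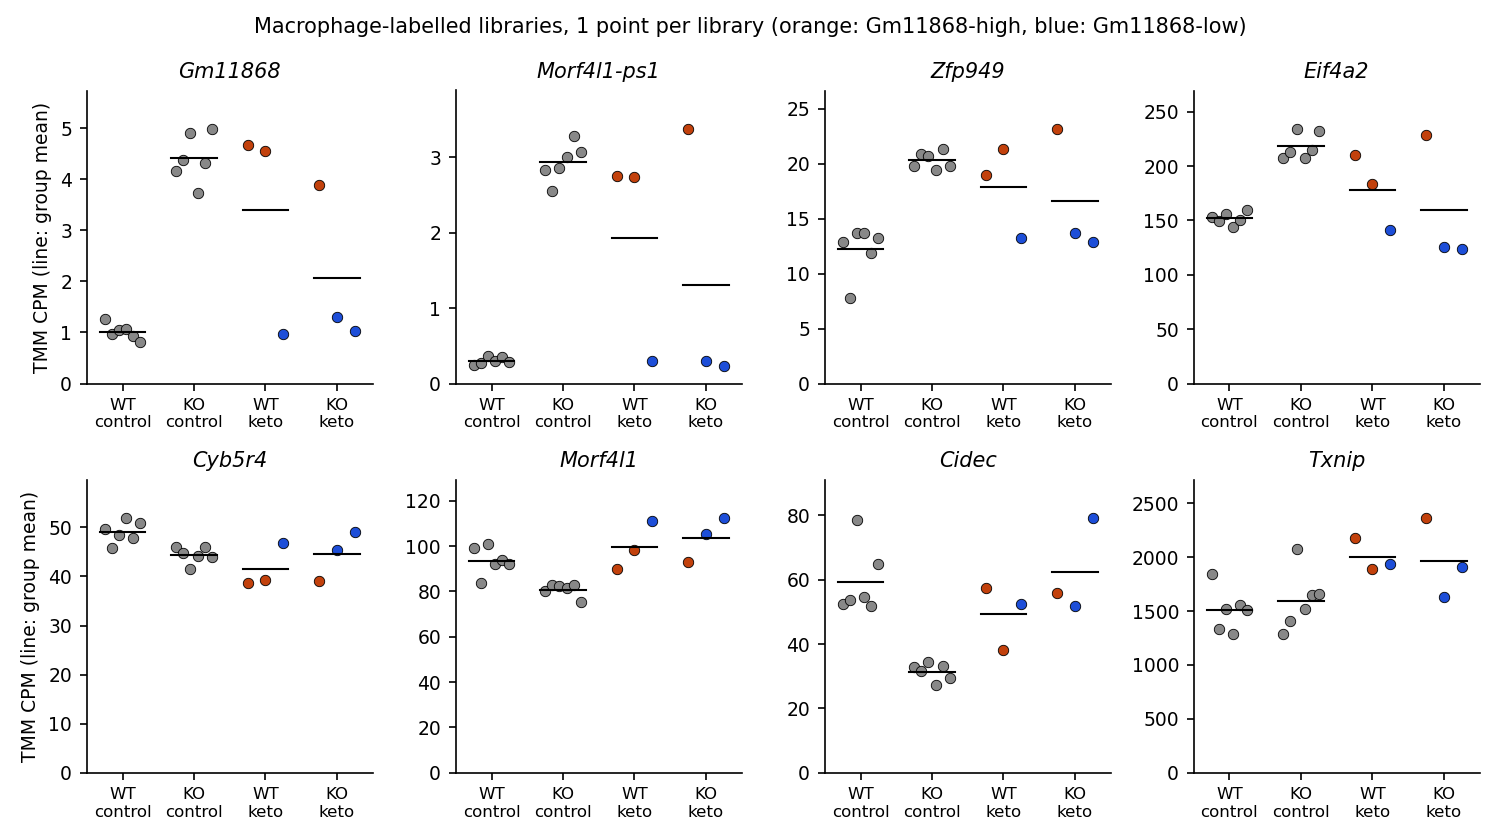
TMM-normalized CPM (y axes, from 0) of 8 genes in the 18 macrophage-labelled libraries, by label and diet (x axes), with 1 point per library and the group mean as a line. Orange high and blue low ketogenic libraries separate for Gm11868, Morf4l1-ps1, Zfp949 and Eif4a2, separate the other way for Cyb5r4 and Morf4l1, and overlap for Cidec and Txnip.

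The parent genes of both pseudogenes went the other way. Cyb5r4 had 38.6, 39.2 and 39.1 CPM in the high libraries WT1, WT2 and KO1 and 46.9, 45.5 and 49.1 CPM in the low libraries WT3, KO2 and KO3. Morf4l1 had 89.9, 98.2 and 93.2 CPM against 110.9, 105.4 and 112.4 CPM. Neither overlapped, with log2 differences of -0.27 and -0.22. The sum of Gm11868 and Cyb5r4 was also lower in the high libraries, at 43.0 to 43.7 CPM against 46.8 to 50.1 CPM in the low ones. Gm11868 made up 9.05 to 10.8% of that sum in the high libraries and 2.03 to 2.78% in the low ones. The classes were made from Gm11868 itself, so this gap restates the rule and is no further result. Its control-diet share was 1.57 to 2.49% with the wild-type label and 7.81 to 10.6% with the knockout label. By the control-diet labels neither parent gene was called, Cyb5r4 at -0.15 ± 0.05 and Morf4l1 at -0.22 ± 0.05 (6 against 6, edgeR adjusted p = 0.427 and 0.231). The control-diet label groups did not overlap for Morf4l1. In eWAT on the ketogenic diet Morf4l1 was called lower with the knockout label, at -0.12 ± 0.03 (8 against 8, edgeR adjusted p = 0.0463). Morf4l1 was not called in eWAT on the control diet, nor was Cyb5r4 on either diet.

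Both parents lie close to Zfp949 on chromosome 9, Cyb5r4 starting 1.53 Mb before it and Morf4l1 starting 1.54 Mb after it. Of the 30 other tested genes that start within 3 Mb of Zfp949, 6 did not overlap between high and low libraries, and all 6 were lower, beside 4.17% lower and 4.24% higher over all genes. They were Pgm3, of nucleotide sugar synthesis, Tbx18, a T-box transcription factor, Mthfsl, Ctsh, a lysosomal cysteine protease, Cyb5r4 and Morf4l1. Ctsh had 53.7, 63.4 and 53.3 CPM in WT1, WT2 and KO1 and 84.9, 63.9 and 91.5 CPM in WT3, KO2 and KO3, so that WT2 and KO2 almost met. Tbx18 had 11.9, 12.8 and 12.2 CPM in the high libraries against 16.3, 16.9 and 16.4 CPM. By the ketogenic labels 2 of the 30 did not overlap, beside 7.44% over all genes. The window was chosen after earlier results of these data were known, and within 1 Mb of Zfp949 2 of 12 other genes did not overlap.

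Neighbours of Eif4a2 were counted in the same way, but within 1 Mb. Eif4a2 ends 32.4 kb before Adipoq, the adiponectin gene, on chromosome 16. Of 21 other tested genes that start within 1 Mb of Eif4a2, 4 were higher and 1 lower in the high libraries without overlap, beside 4.24% and 4.17% over all genes. Morf4l1-ps1, on the same chromosome, starts outside this window. Within 1 Mb of Txnip 1 of 52 other genes was higher and 5 were lower without overlap. Within 1 Mb of Gm11868 1 of 5 was lower. B630019A10Rik, which starts 0.0678 Mb after the start of Eif4a2, had 2.73, 2.75 and 3.50 CPM in WT1, WT2 and KO1 and 2.19, 2.02 and 2.01 CPM in WT3, KO2 and KO3. This gene was higher with the knockout label in eWAT on both diets, by 1.49 on the control diet and 1.30 on the ketogenic diet on the log2 scale (edgeR adjusted p = 0.000852 and 0.0144). In the macrophage-labelled control-diet libraries its difference of 0.58 was not called (edgeR adjusted p = 0.476). Dgkg, a diacylglycerol kinase gene, had 2.68, 2.79 and 2.33 CPM in the high libraries and 1.62, 0.820 and 1.35 CPM in the low ones. None of its label differences elsewhere was called, at -0.03 in the macrophage-labelled control-diet libraries (edgeR adjusted p = 0.965) and 0.27 and 0.29 in eWAT (edgeR adjusted p = 0.375 and 0.578).

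**Figure D3:**
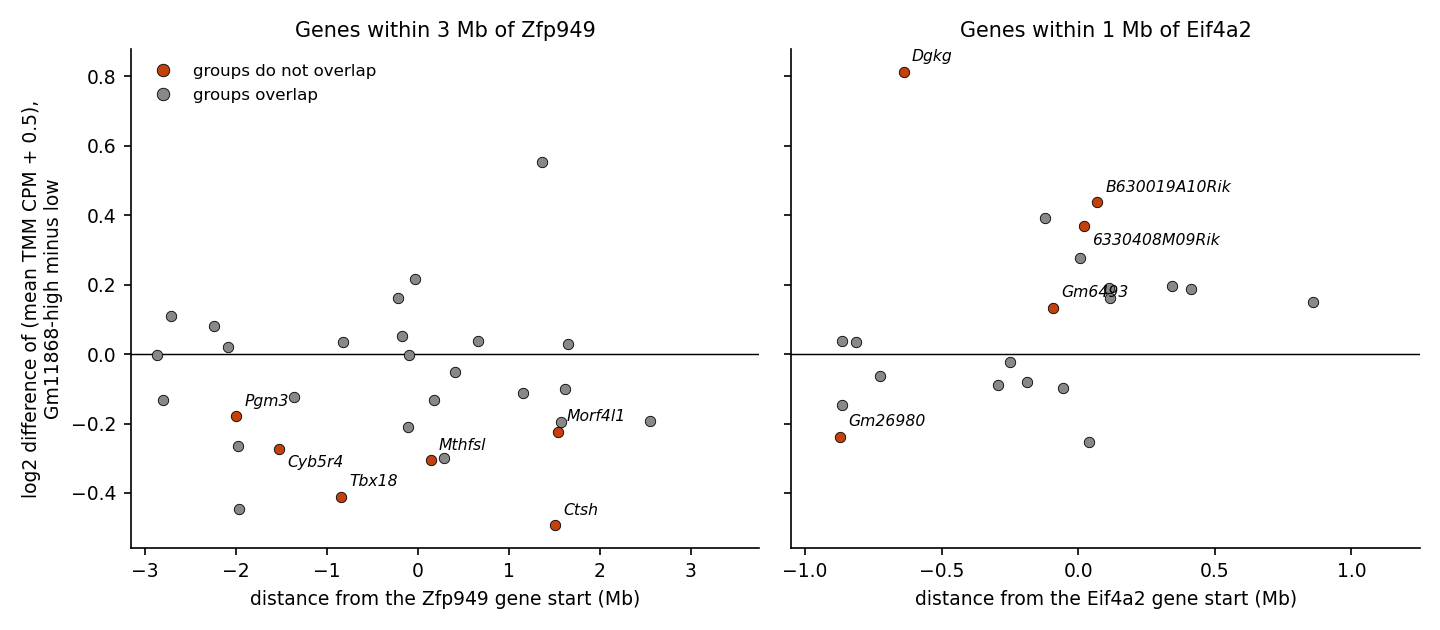
Log2 difference of Gm11868-high minus Gm11868-low libraries (y axis, mean TMM CPM plus 0.5) against the distance of each gene's start from that of Zfp949 (left, 30 genes) or Eif4a2 (right, 21 genes) in Mb, without Zfp949 and Eif4a2 themselves. Orange genes do not overlap between the classes. Near Zfp949 the 6 such genes were lower, and near Eif4a2 4 of 5 were higher.

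The genes with ordinary symbols most like Gm11868 over the 12 control-diet macrophage-labelled libraries, among 11711 of 17067 tested that had such a symbol and a mean of at least 2 CPM there, were Eif4a2 (Pearson r = 0.98), Zfp949 (0.88), the acyltransferase gene Agpat5 (0.88), the threonine tRNA ligase gene Tars (0.88) and the asparagine tRNA ligase gene Nars2 (0.84). The pseudogene Morf4l1-ps1, with a mean of 1.62 CPM in these libraries, was outside that comparison and had r = 0.98. These points share diet and library set and fall into the 2 label groups, so the values are a description. In the ketogenic libraries Eif4a2 and Zfp949 again did not overlap between high and low. Agpat5, Tars and Nars2 did overlap, with log2 differences of 0.07, -0.07 and 0.04.

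The genes called on the control diet other than Gm11868, 13 of them, were followed into the ketogenic libraries under both groupings. High minus low, 13 of 13 had the direction of the control-diet knockout label, 5 of them without overlap. Over all genes 8.4% did not overlap, 4.24% higher and 4.17% lower. By the ketogenic labels 2 of 13 had that direction and none was without overlap, beside 7.44% of all genes. The 5 genes were Morf4l1-ps1, Zfp949 and Eif4a2, already described above, and Dgat2 and Slc7a10. Genes can vary together, so the 13 are not separate observations. Dgat2, which makes the last step of triglyceride synthesis, had 22.2, 24.7 and 20.6 CPM in WT1, WT2 and KO1 and 40.3, 34.6 and 37.6 CPM in WT3, KO2 and KO3. Its log2 difference was -0.73 here and -0.82 ± 0.14 by the control-diet labels (6 against 6, edgeR adjusted p = 0.0478). Slc7a10, an amino acid transporter, had 1.85, 1.42 and 2.33 CPM in the high libraries and 2.40, 2.36 and 3.06 CPM in the low ones. Of the other genes called lower, Cyp2e1, a cytochrome P450, differed by -0.88 and Cfd, the complement protease adipsin, by -0.04, both with overlap.

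**Figure D4:**
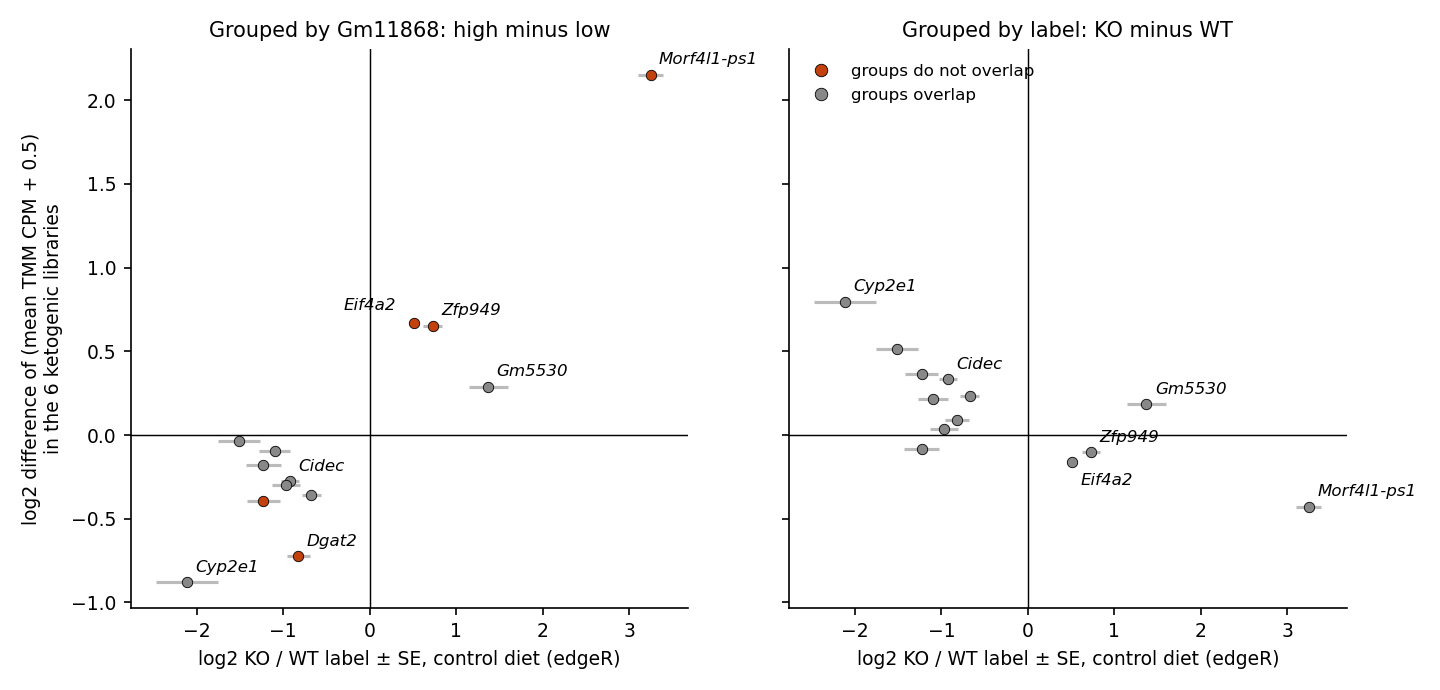
The 13 genes other than Gm11868 called by label on the control diet. The x axes give the log2 fold change of the knockout over the wild-type label on the control diet with its SE, and the y axes the log2 difference (mean TMM CPM plus 0.5) in the 6 ketogenic libraries grouped by Gm11868 (left) or by label (right). On the left 13 of 13 points share the sign of the control-diet fold change and 5 do not overlap between groups, and on the right 2 of 13 share it and none is without overlap.

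Whole eWAT gave a longer list. Of the genes called in the same direction by label on both eWAT diets, 140 of 152 were tested in the 6 libraries. High minus low, 102 of the 140 had the eWAT direction and 23 of them did not overlap, while 2 did not overlap in the opposite direction, beside 8.4% without overlap over all genes. By the ketogenic labels 53 of 140 had the eWAT direction, 1 of them without overlap, and 10 did not overlap in the opposite direction, beside 7.44% over all genes. For the 45 genes higher with the knockout label in eWAT, 35 had that direction high minus low and 9 did not overlap. By the ketogenic labels 12 of the 45 had it and 9 were without overlap in the opposite direction. For the 95 tested genes lower with the knockout label in eWAT, 67 had that direction high minus low, 14 of them without overlap, and 2 did not overlap in the opposite direction. By the ketogenic labels 41 of the 95 had it, with 1 gene without overlap in each direction. Gm11868, whose direction and lack of overlap the rule fixes, is among the 45, the 35 and the 9. It is therefore also among the 102 and the 23. The eWAT libraries are other samples, and no test was made on these counts.

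By the deposited labels, no gene of 17067 was called in the 6 libraries by edgeR (0.0%), and 520 had an unadjusted p under 0.05. DESeq2 called 15 genes, all lower with the knockout label, which include Il1rn, the interleukin-1 receptor antagonist, the lectin gene Lgals3, the lysosomal proton pump subunit Atp6v0d2 and the complement genes C1qb and C1qc. Il1rn had 4.24, 3.003 and 2.23 CPM in WT1 to WT3 and 1.33, 1.06 and 1.14 CPM in KO1 to KO3, a log2 difference of -1.41 ± 0.26 (3 against 3, edgeR adjusted p = 0.667). Spp1, or osteopontin, had 13.6, 1.52 and 4.84 CPM against 0.899, 1.52 and 0.664 CPM, so that WT2 and KO2 were all but equal. In whole eWAT on the ketogenic diet Il1rn and Spp1 went the other way. They were called higher with the knockout label there, by 1.555 and 2.08 (8 against 8, edgeR adjusted p = 0.041 and 0.039). Neither was called in eWAT on the control diet (edgeR adjusted p = 0.825 and 0.729). Gpnmb, a glycoprotein of lipid-laden macrophages, had 143.4, 67.5 and 95.6 CPM against 51.0, 32.2 and 54.7 CPM (-1.15 ± 0.33, edgeR adjusted p = 1). Among the genes with the largest differences in the other direction, Ms4a1, which encodes the B cell antigen CD20, had 4.05, 4.50 and 5.12 CPM in WT1 to WT3 and 9.46, 5.14 and 9.10 CPM in KO1 to KO3 (0.79 ± 0.22, edgeR adjusted p = 1).

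The difference between the label effects of the 2 diets was tested as an interaction over the 18 macrophage-labelled libraries. No gene of 18566 was called by edgeR (0.0%), with 726 at an unadjusted p under 0.05 and 17 called by DESeq2, among them Cidec (adjusted p = 0.000609). For Gm11868, whose values made the classes, the interaction is a description, at -2.80 ± 0.57 on the log2 scale. It was -3.78 ± 0.93 for Morf4l1-ps1 (edgeR adjusted p = 0.627), -0.82 ± 0.26 for Zfp949 and -0.67 ± 0.21 for Eif4a2 (0.958 each), and 1.27 ± 0.22 for Cidec (0.267). Leaving out each of the 6 ketogenic libraries in turn, edgeR called 4 genes without KO1, among them Eif4a2 (-1.02, adjusted p = 0.0128) and Morf4l1-ps1 (-6.06, adjusted p = 0.00437), 1 without WT3, which was Gm11868, and none without any of the other 4. WT3 and KO1 are the 2 libraries whose Gm11868 was on the side of their own label, so these runs are not independent of the values that made the classes.

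Across all genes the 2 groupings gave similar numbers. Any division of 6 libraries into 3 and 3 leaves some genes without overlap by chance, and that share was not tested. High and low libraries did not overlap for 1434 genes (8.4%), 723 higher and 711 lower, and label groups did not overlap for 1269 (7.44%), 536 higher (3.14%) and 733 lower (4.29%). At 2-fold or more the first had 5 genes (0.0293%) and the second 7 (0.041%), 2 higher (0.0117%) and 5 lower (0.0293%). The 5 were Gm11868 and Morf4l1-ps1, which were higher (0.0117%), and Iglv1, Iglc1 and Ldhc, which were lower (0.0176%). Ldhc, the testis lactate dehydrogenase, reached 2.16 CPM in KO2 and stayed between 0.118 and 0.418 CPM in the other 5. Iglv1 and Iglc1 encode parts of the antibody lambda light chain and were at 0.300 to 1.30 CPM in the high libraries and 1.38 to 6.16 CPM in the low ones, KO3 being the highest for both.

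Below 2-fold, the genes with the largest positive differences included Cd200r1, an inhibitory receptor of myeloid cells, at 2.84, 2.85 and 2.72 CPM in WT1, WT2 and KO1 against 1.64, 0.800 and 1.33 CPM in WT3, KO2 and KO3. Lepr, the leptin receptor, had 20.1, 24.8 and 16.8 CPM against 11.7, 13.7 and 12.4 CPM. F2rl1, a protease-activated receptor, differed by 0.84, Cyp26b1, which degrades retinoic acid, by 0.60, and Dock2, which drives migration of white blood cells, by 0.58. None of these 5 was called by the control-diet labels, with edgeR adjusted p from 0.533 to 0.903. The largest negative differences included Jchain, which joins antibody chains, at 7.58, 3.63 and 7.31 CPM against 16.9, 10.2 and 10.2 CPM. Gpd1, which makes glycerol phosphate for triglycerides, had 8.63, 7.16 and 6.61 CPM against 11.6, 10.1 and 16.5 CPM. Tll2, a metalloprotease gene, differed by -0.99 and Ccne1, cyclin E1, by -0.71.

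Gene groups were counted in the same way, with no test. Of 36 lists none had a member that differed 2-fold without overlap, and 30 had at most 1 member without overlap. Another 4 had 2 such members each. For the MHC class II group, which presents antigen, 7 of 9 genes were higher without overlap in the high libraries, beside 4.24% of all genes, with a median log2 difference of 0.29 against 0.00 over all genes. Cd74, its invariant chain, had 421.5, 382.0 and 358.7 CPM in WT1, WT2 and KO1 and 324.8, 290.0 and 332.2 CPM in WT3, KO2 and KO3. H2-Aa had 93.9, 86.9 and 84.5 CPM against 74.6, 63.1 and 73.4 CPM. Ciita, the factor that switches these genes on, overlapped. The gaps were narrow, and KO1, at a summed 669 CPM, lay between WT3, at 609 CPM, and WT2, at 706.4 CPM, with WT1 at 773.8 CPM.

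Pan-macrophage genes overlapped between high and low libraries. Of the 15 pan-macrophage genes none was at 0 and none was without overlap between the classes, with a median of 0.33. By label 10 of 15 were lower without overlap in the knockout-labelled libraries, beside 4.29% of all genes, and none higher, with a median of -0.45 against 0.00 over all genes, and none was called by edgeR. Their summed level was 816.6, 798.1 and 691.7 CPM in WT1 to WT3 and 639.6, 525.2 and 601.8 CPM in KO1 to KO3. Adgre1, the F4/80 gene, had 24.3, 23.6 and 17.5 CPM against 16.2, 13.2 and 14.6 CPM, a log2 difference of -0.57 ± 0.14 (3 against 3, edgeR adjusted p = 1, and 0.000528 with no low-count filter). Itgam had 3.86, 2.81 and 2.19 CPM against 1.99, 2.20 and 1.99 CPM, and Fcgr1 had 1.21, 1.63 and 1.03 CPM against 1.33, 0.780 and 0.972 CPM. By Gm11868 class, Fcgr1 was higher without overlap in the high libraries, as were 2 of 10 monocyte and 2 of 10 complement genes, beside 4.24% of all genes. WT1 and WT2 are at once the 2 libraries with the highest pan-macrophage sums and 2 of the 3 high libraries, and the part of that in the high-minus-low differences of immune genes was not tested. Endothelial genes, at a summed 9169 to 10065 CPM, showed no such order. Of these genes 1 of 10, Vwf, was without overlap between the classes, beside 8.4% of all genes. Some other cell type lists were also shifted by label, with no gene called by edgeR. Mesothelial genes had a median of -0.34, with 6 of 10 lower at an unadjusted p under 0.05. The number of all genes at such a p, in either direction, is given above. Of the 10, 2 were lower without overlap, beside 4.29% of all genes. Adipocyte genes had a higher value with the knockout label in 14 of 14 and a median of 0.21, and B cell genes in 12 of 12 and a median of 0.18. Both lists had 1 gene higher without overlap, beside 3.14% of all genes. By Gm11868 class the medians of mesothelial, adipocyte and B cell genes were 0.13, -0.12 and -0.04.

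As a set, the 13 listed cell cycle genes followed neither grouping, and Ccne1, given above, is not among them. Their summed level was 201.9 CPM in WT1 and 212.6 in KO1, 310.3 in WT3, and 389.4, 370.3 and 428.7 CPM in WT2, KO2 and KO3. Top2a, the mitotic topoisomerase, had 18.3, 53.4 and 35.0 CPM in WT1 to WT3 and 18, 53.6 and 53.6 CPM in KO1 to KO3. None of the 13 genes was without overlap under either grouping, although the median was -0.66 high minus low. WT1 and KO1, both high in Gm11868, had little cell cycle RNA, and WT2, also high in Gm11868, did not. Without WT2 the number of genes at 2-fold without overlap between high and low rose from 5 to 105, beside 17067 genes tested with all 6 libraries. Of the 105, 102 were lower and 9 were among the 13 genes of the cell cycle list. Leaving out each of the 6 libraries in turn gave 9 to 105 such genes, and fewer libraries overlap less often. WT2 is the high library with the most cell cycle RNA, so its removal favours members of that list.

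The first principal component of the 6 libraries, with 28.9% of the variance, placed WT1 at 20.6 and KO1 at 13.2, and the other 4 between -15.3 and -1.12. It separated neither the labels nor the Gm11868 classes.

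**Figure D5:**
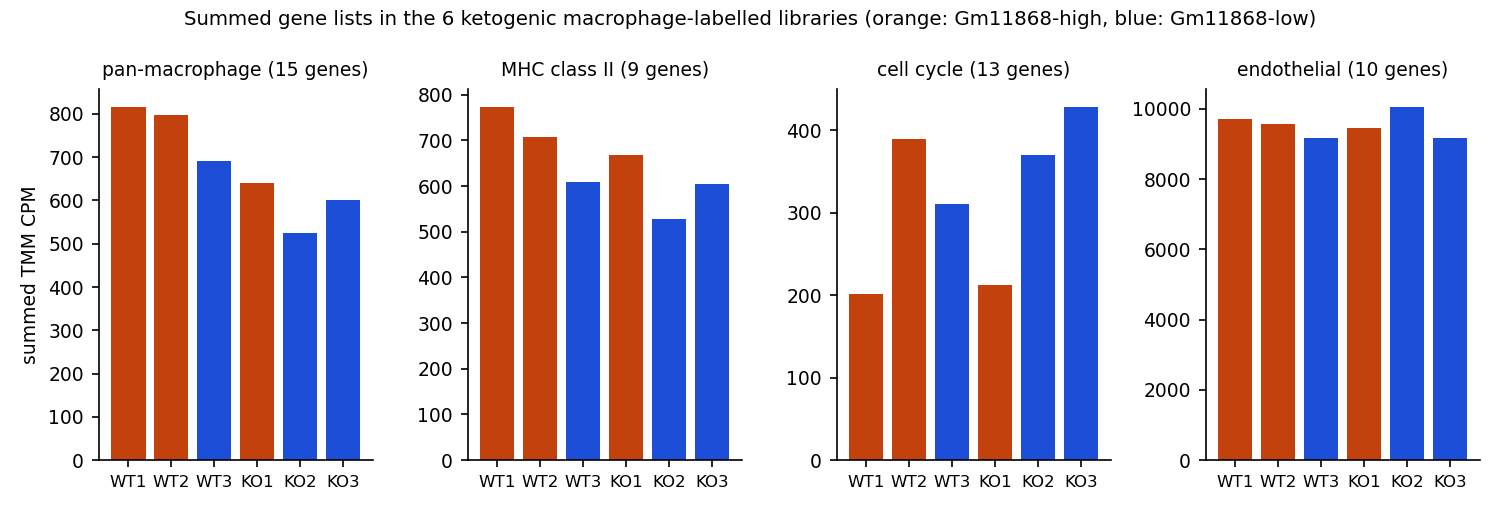
Summed TMM CPM (y axes, from 0) of the pan-macrophage, MHC class II, cell cycle and endothelial gene lists in each of the 6 libraries (x axes), orange where Gm11868 was high and blue where it was low. Pan-macrophage sums are 691.7 to 816.6 CPM in WT1 to WT3 and 525.2 to 639.6 CPM in KO1 to KO3, cell cycle sums are lowest in WT1 and KO1, and endothelial sums lie between 9169 and 10065 CPM.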

How the data were processed

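The deposited files hold unnormalized whole read counts for every gene and library. Their rows for reads that were unmapped, mapped to several places, outside genes or ambiguous stayed out of all totals. Per the submitters' processing notes, Trim Galore 0.6.0, STAR 2.7.8a and the build mm10 were used. The release of the gene annotation is not given in the sources. Per the labels' protocols, the macrophage libraries came from a low-input cDNA kit, and their unstranded column was used. The eWAT libraries came from a stranded kit, and of their 2 strand columns the fuller one was used. Of 55471 genes 55230 were matched to GENCODE vM21 (GRCm38). A read that maps to a pseudogene and its parent alike falls into the row for several places.

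Label groups were compared with edgeR 4.0.16 in R 4.3.3, with filterByExpr, TMM normalization, a robust quasi-likelihood fit, two-sided tests and Benjamini-Hochberg adjustment over all genes at a threshold of 0.05. An SE is the absolute log2 fold change divided by the square root of F. Each comparison was fitted on its own libraries, and the interaction on the 18 macrophage-labelled libraries. CPM levels were scaled by TMM across the libraries of each tissue, except for the rule's CPM of gene counts. Alternatives were DESeq2 1.42.0, limma-voom (limma 3.58.1), filters, pseudocounts, left-out libraries and a replicate block. A window of 1 Mb and counts without a fold minimum were added after seeing the data. The pipeline was tested on simulated data, and transcripts were aligned with BLAST 2.17.0.

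The members, the 36 gene lists and the windows were chosen with earlier results of these data known. Named genes were Gm11868, Zfp949, Eif4a2, Txnip and the sort genes, the genes shared by the other label comparisons, those most like Gm11868, and the largest differences without overlap among ordinary symbols with a mean of at least 2 CPM, 10 in each direction by Gm11868 and 5 by label, of which some are given. Neighbours, parents of the pseudogenes, example members of lists and genes called by DESeq2 were named after their values were seen. Total gene counts of the 6 libraries were 43.8 to 59.7 M. Intervals from counts would cover counting error only. No 2 libraries of a group agreed within sampling noise. The counts of 1 gene list are not reported here.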

Additional observations from a re-analysis of the deposited data

Results flagged for a closer look

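Within single groups of 4 to 10 libraries, 5 values of the named genes stood far from the rest of their group, of 66 groups checked, and chance gives about 1 in 20. They concern libraries other than the 6 ketogenic macrophage-labelled ones, whose groups of 3 were not checked. Zfp949 was at 7.80 CPM in wild-type-labelled control-diet macrophage-labelled library 2, where the next lowest was at 11.9 CPM. Itgam was at 17.3 CPM in wild-type-labelled control-diet macrophage-labelled library 4, with the next at 7.79 CPM. In eWAT, Cyb5r4 was at 38.3 CPM in wild-type-labelled ketogenic library 3 (next 34.4 CPM), Adgre1 at 149.0 CPM in knockout-labelled control-diet library 3 (next 105.7 CPM) and Fcgr1 at 15.4 CPM in wild-type-labelled control-diet library 4 (next 5.53 CPM).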

How the results depend on the processing

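Of the alternatives to the counts of genes, 26 stayed within 1.5 times the value given and 26 did not. By label on the ketogenic diet, 0 genes became 15 with DESeq2, 103 with no low-count filter and 7 with a replicate block. On the control diet 14 became 115 with DESeq2, 33 with limma-voom and 9 with all 4 macrophage-labelled groups in one fit. The interaction went from 0 to 17 genes with DESeq2 and 10 with the replicate block. Leaving out 1 library gave 0 to 1, 0 to 4, 9 to 105 (high against low) and 6 to 23 genes (label, no overlap). At 2-fold, 5 genes between high and low became 56 at 1.5-fold, 1434 with no fold minimum and 2 with a pseudocount of 2 CPM, and 7 by label became 58, 1269 and 2. Some uncalled differences changed sign: Txnip by label was 0.0267 with limma-voom and -0.17 to 0.0997 over left-out libraries (interaction -0.25 to 0.0265), Zfp949 by label -0.42 to 0.0587, Morf4l1 by label -0.0107 to 0.14, and Itgam by the control-diet label 0.0513 with the block. The cause was not tested. Each of the 6 libraries correlated best with the library of the other label that has its own number (0.23, 0.14 and 0.08 for the 3 pairs), as a hint from the data, and the rule for pairing, every correlation over 0.1, was not met. On the control diet the block gave 15 genes and ended the call of Zfp949 (adjusted p = 0.0636). With 3 libraries a class, counts without overlap are set by few values, and pseudogene values rest on 10 to 212 reads a library.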
